A study of Mus musculus with 20 samples.

Results

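The transcriptome of ovarian antral follicles was described in the 10 mice that drank plain water, out of 20 mice sequenced. Genes were those the submitters marked as kept after their expression filter, which were 18169 of the 39253 in their table. The mice were CD-1 females, an outbred stock, whose treatment started at 40 days of age and lasted 35 days, and they were 75 days old at collection. Each control mouse received vehicle water only, with no iodoacetic acid (IAA, a by-product of water disinfection that the other mice drank). Ovaries were taken in diestrus. From each mouse 30 to 40 follicles of 220 to 400 µm were dissected by hand, frozen and pooled into 1 library. The controls came from 2 experiments run a month apart, with 5 mice each: control replicates 6 to 10 belonged to experiment 1 and replicates 1 to 5 to experiment 2. Each value is therefore an average over many follicles, and over all cells in them, of 1 animal. Levels are in CPM, counts scaled to the same total in every library. Spread between mice is the standard deviation (SD) of log2 CPM after the mean of each experiment was subtracted.

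An antral follicle is a fluid-filled sphere around an oocyte. Granulosa cells line it, divide, make inhibins and, under follicle-stimulating hormone, turn androgens into estrogens. Theca cells outside the basement membrane supply those androgens and lie among the blood vessels and stroma. After ovulation both layers become luteal cells, which make progesterone.

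Library totals ran from 41730080 to 51008396 estimated counts. Of the kept genes, 14260 had a mean of at least 1 CPM, 10492 of at least 10 CPM, 2534 of at least 100 CPM and 67 of at least 1000 CPM. Expression was spread over many genes: the 1310 genes with most counts held 50% of them and the leading 6638 held 90%. The 25 genes with the highest mean CPM took 6.55% ± 0.34 (SD, n = 10) of a library. Protein-coding genes were 15569 of the kept genes and long non-coding RNAs 1990. None of the 4 Y-linked genes examined had a count in any library, and Xist, the RNA that coats the inactive X chromosome, lay between 536 and 878 CPM.

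The gene with the highest level was Eef1a1, a translation elongation factor, at 7754 ± 940 CPM (SD, n = 10). Inha, which encodes the inhibin alpha subunit of granulosa cells, came next at 5434 ± 880 CPM. Gja1, the connexin of granulosa gap junctions, was the third at 4937 ± 701 CPM. Hsd3b1, which makes progesterone from pregnenolone, followed at 3907 ± 659 CPM. The beta subunits of inhibin and activin were also among the 25, with Inhba at 2347 ± 600 CPM and Inhbb at 2217 ± 438 CPM. Cyp11a1, which cuts the side chain of cholesterol, stood in the same group at 1569 ± 995 CPM, with the largest relative spread of those named here. The remaining places were held largely by genes of general cell work, among them Eef2, Hspa8, Hsp90ab1, Tpt1, Actb, Actg1 and Rpl4. Of the 25, 10 were also among the 25 highest when CPM was divided by the longest transcript's length in kilobases, a scale on which Eef1a1 and Inha kept the leading places.

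Markers of each expected cell type were present. Inha in granulosa cells ran from 4519 CPM through a median of 5194 to 7296. Fshr, the receptor for follicle-stimulating hormone, ran from 56.6 through 99.6 to 141 CPM. Cyp19a1, the aromatase that makes estrogens, ran from 26.5 through 86.1 to 188 CPM. Replicate 7 was lowest in all 3 of these granulosa genes, while the highest mouse was replicate 10 for Inha and Fshr and replicate 2 for Cyp19a1. Cyp17a1, the theca enzyme that makes androgens, ran from 135 through 287 to 1050 CPM, with replicates 2, 3 and 5 standing apart at 966, 1016 and 1050 CPM. For the oocyte, Zp3, a coat protein of the egg, ran from 38.8 through 57.8 to 72.8 CPM, and Gdf9, a growth factor secreted by the oocyte, from 76.3 through 120.8 to 145 CPM. Pecam1, an adhesion molecule of endothelium, kept the narrowest range, from 36.0 through 45.4 to 50.6 CPM. The SD of log2 CPM was 1.02 for Cyp19a1, 0.94 for Cyp17a1, 0.40 for Fshr, 0.30 for Zp3, 0.29 for Gdf9, 0.20 for Inha and 0.17 for Pecam1.

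**Figure D1:**
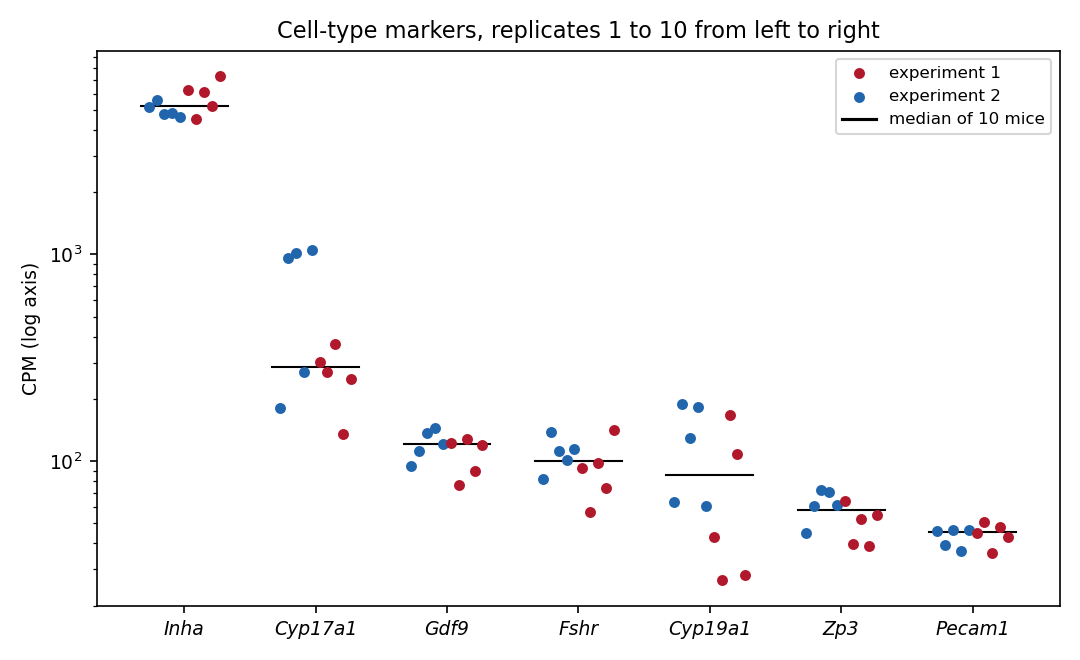
CPM on a log axis of the 7 markers in each of the 10 water-drinking mice, as points coloured by experiment, with replicates 1 to 10 placed from left to right and the median as a line. Cyp19a1 and Cyp17a1 span the widest ranges and Pecam1 the narrowest, from 36.0 to 50.6 CPM.

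Per kilobase of the longest annotated transcript, Inha stood far above the other markers at 3684 CPM per kb. Cyp17a1 followed at 200.2 CPM per kb and Gdf9 at 64.0 CPM per kb. Fshr at 42.8, Zp3 at 42.4 and Cyp19a1 at 40.7 CPM per kb lay closer together than their spread between mice. Pecam1 was lowest at 12.7 CPM per kb.

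Most genes varied little between mice. Among the 10492 genes of at least 10 CPM the median SD was 0.13 on the log2 scale, which is a 1.10-fold deviation, and 3078 genes (29.3%) had an SD under 0.1. The common biological coefficient of variation, edgeR's estimate of the spread beyond counting error, was 23.1% over all kept genes. Its median per gene was 17.6%. By level, the median coefficient was 36.9% for genes under 1 CPM, 25.3% from 1 to 10 CPM 12.1% from 10 to 100 CPM, 9.99% from 100 to 1000 CPM and 12.6% in the 67 genes above. Counting error made up a median of 3.10% of the variance among genes of at least 10 CPM. High spread, defined as an SD of at least 0.5 at a mean of at least 10 CPM, was met by 383 genes (3.65%), of which 64 had an SD of at least 1. Just inside that limit were Fgf13, Gm42427 and Tmem62, with SDs of 0.501, 0.501 and 0.5003, and just outside were Gm14230, Plin1 and Tmem267, with SDs of 0.499, 0.498 and 0.496.

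**Figure D2:**
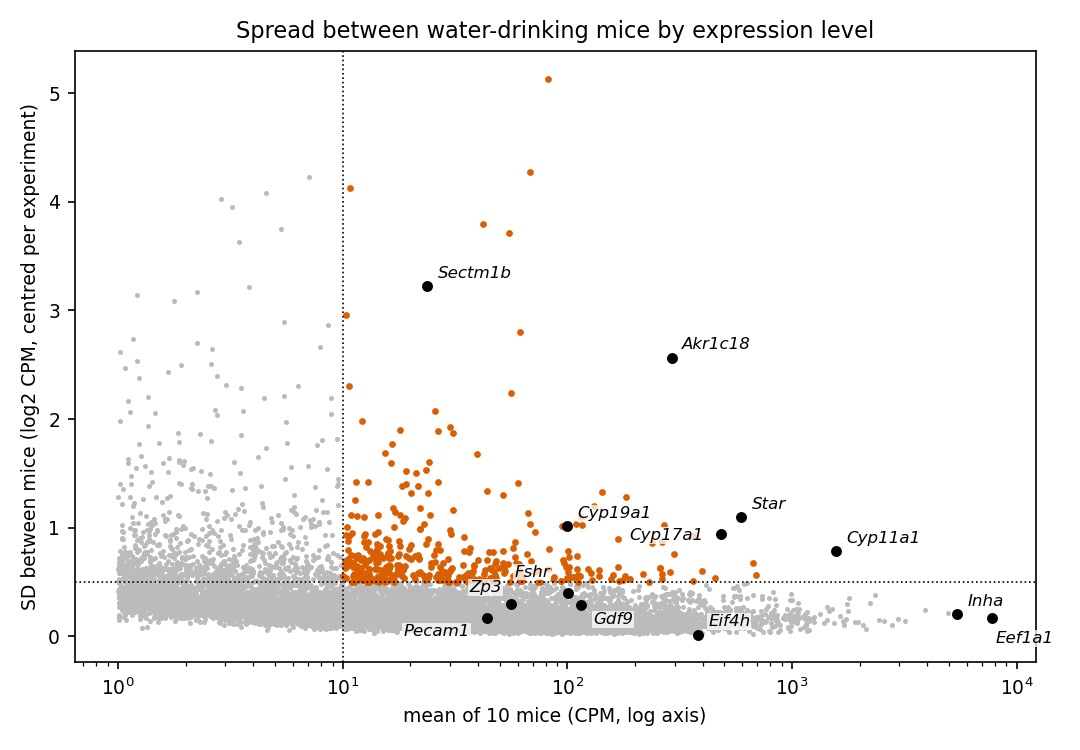
SD between mice of log2 CPM, centred per experiment, against the mean CPM on a log axis, for genes of at least 1 CPM. Orange points are the 383 high-spread genes, dotted lines mark an SD of 0.5 and 10 CPM, and black points are named genes, with Akr1c18 at 2.56 and Eif4h at 0.02.

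Eif4h, a helper of translation initiation, had the smallest SD among genes of at least 10 CPM (0.02), with values from 357 through 381 to 405 CPM. Caprin1, an RNA-binding protein, and Yy1, a transcription factor, also had SDs of 0.02. Of the 18 genes often used as references in quantitative PCR, none had high spread, which in a list this short is close to the share over all genes. Ywhaz ran from 496 through 519 to 547 CPM with an SD of 0.04, and Ppia from 927 through 973 to 1038 CPM with an SD of 0.05. B2m, at 113 through 154 to 274 CPM, had the largest SD of that list at 0.31 and Tfrc had 0.23. Actb (0.13) and Gapdh (0.16) lay close to the median of all genes. The 20 proteasome genes had a median SD of 0.08 and the 18 nuclear genes of oxidative phosphorylation also 0.08, against 0.13 over all genes of at least 10 CPM. Neither list held a gene of high spread, which in lists this short is close to the 3.65% of all genes at this level.

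Of the 15 lists of gene function, steroid synthesis had the highest median SD. The list of luteal cell markers shares 3 genes with it, Cyp11a1, Hsd3b1 and Akr1c18, of which 2 had high spread, so that the lists are not independent. Of 12 steroid synthesis genes 7 had high spread, with a median SD of 0.69, and of 9 luteal genes 7 did, with a median SD of 0.56, beside 3.65% and 0.13 over all genes of at least 10 CPM. Star, which carries cholesterol into mitochondria, ran from 148 through 308 to 2541 CPM. Cyp11a1 ran from 554 through 1472 to 3976 CPM. Replicate 7 was highest for both. Akr1c18, which inactivates progesterone, ran from 7.05 through 99.7 to 1656 CPM, with an SD of 2.56. Ptgfr, the receptor for luteolytic prostaglandin, ran from 32.2 through 63.1 to 514 CPM. Sfrp4, a secreted Wnt-binding protein, ran from 69.6 through 159 to 864 CPM. Replicate 7 was again highest for these 3 genes. By contrast Hsd3b1 ran only from 3027 through 3914 to 5108 CPM, with an SD of 0.24, and Hsd17b1, which makes estradiol, from 318 through 610.0 to 707 CPM, with an SD of 0.37. Without replicate 7 the SD was 0.82 for Star, 0.69 for Cyp11a1, 2.27 for Akr1c18 and 0.97 for Ptgfr, and 5 of the 9 luteal genes had high spread. Without replicate 10, 4 of the 9 did.

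**Figure D3:**
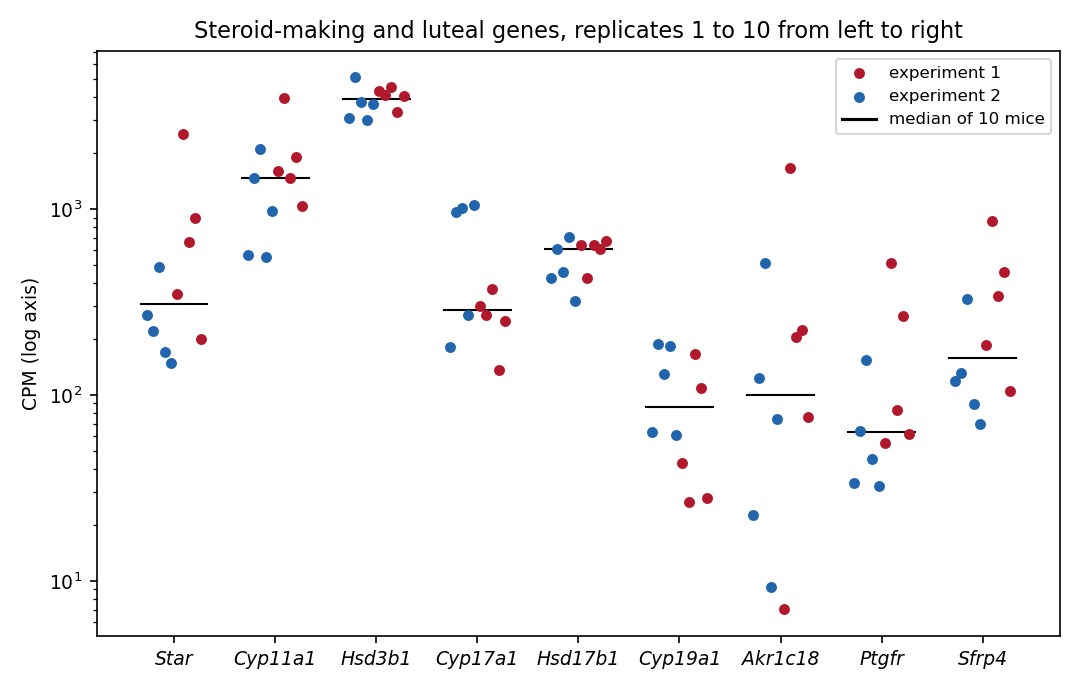
CPM on a log axis of 6 steroid synthesis genes and of Akr1c18, Ptgfr and Sfrp4 in each mouse, coloured by experiment, with replicates 1 to 10 from left to right and the median as a line. Akr1c18 spans from 7.05 to 1656 CPM, while Hsd3b1 stays between 3027 and 5108 CPM.

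Among genes for cholesterol synthesis and uptake, 3 of 20 had high spread, beside 3.65% of all genes of at least 10 CPM. These were Idi1 (SD 0.72) and Dhcr7 (0.58), which are synthesis enzymes, and Scarb1 (0.56), the receptor that takes up cholesterol from high-density lipoprotein. Scarb1, which is also in the luteal list, ran from 411 through 587 to 1601 CPM. In replicate 7 all 20 genes lay above their experiment's mean, and in replicate 10 only 1 did. Without replicate 7, 1 of the 20 had high spread.

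Of 11 hormone receptors, 2 had high spread, beside 3.65% of all genes of at least 10 CPM. The count was 1 without replicate 3, 4 or 7 and 0 without replicate 10. Prlr, the prolactin receptor, ran from 149 through 232 to 509 CPM and Lhcgr, the receptor for luteinizing hormone, from 95.3 through 175 to 281 CPM. Both are also in the luteal list, so the lists are not independent. Amhr2, the receptor for anti-Müllerian hormone, was steadier, from 149.8 through 182 to 208 CPM with an SD of 0.12.

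The make-up of the libraries was read from lists of cell-type markers. Fewer cells of a type and less RNA per cell cannot be told apart in such bulk samples. Of all genes of at least 10 CPM, 3.65% had high spread. In lists as short as these, counts of 0 or 1 are close to that share and mark no trait of a cell type. Granulosa markers summed to between 15094 and 22370 CPM and oocyte markers to between 607 and 1141 CPM. No oocyte gene had high spread among 18, although they moved together: in replicate 7 none of the 18 and in replicate 6 all 18 lay above their experiment's mean. Theca markers summed to between 1362 and 4519 CPM, with 3 of 8 of high spread (Star, Cyp17a1 and Fdx1, the electron donor of mitochondrial steroid enzymes). All 3 are also in the steroid synthesis list, so this count is not a separate result. Endothelial markers summed to between 350 and 567 CPM with none of 11 of high spread. Pericyte and smooth muscle markers reached from 766 to 1536 CPM and stromal markers from 1692 to 3998 CPM, each with 1 gene of high spread, Pdgfrb and Lum. Without replicate 7 both counts were 0, with an SD of 0.37 for Pdgfrb and 0.28 for Lum, and without replicate 10 the pericyte count was 0 as well. Without replicate 1, 2, 3, 6 or 9 both counts were 2, and without replicate 5 the stromal count was 2. Lum, a matrix proteoglycan, ran from 59.6 through 80.4 to 265 CPM, with replicate 7 highest.

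Markers of immune cells were low. Macrophage markers summed to between 70.7 and 245 CPM and class II antigen-presenting genes to between 63.0 and 216 CPM. All 5 macrophage genes of at least 10 CPM and all 4 class II genes had high spread, beside 3.65% of all genes at this level. Lyz2, the lysozyme of macrophages, ran from 21.7 through 35.3 to 91.2 CPM, highest in replicate 7. Cd74, the chaperone of class II proteins, ran from 27.4 through 33.1 to 92.3 CPM, and replicates 7, 8 and 9 of experiment 1 held its 3 highest values. Without replicate 7 none of the 5 macrophage genes passed the limit, while all 4 class II genes did. Lymphocyte and neutrophil markers summed to at most 4.72 CPM, and Cd3d, Cd8a, S100a8 and Ly6g were not among the kept genes. Hemoglobin Hba-a1 ran from 6.32 through 16.2 to 35.6 CPM. Oviduct markers summed to at most 21.4 CPM.

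**Figure D4:**
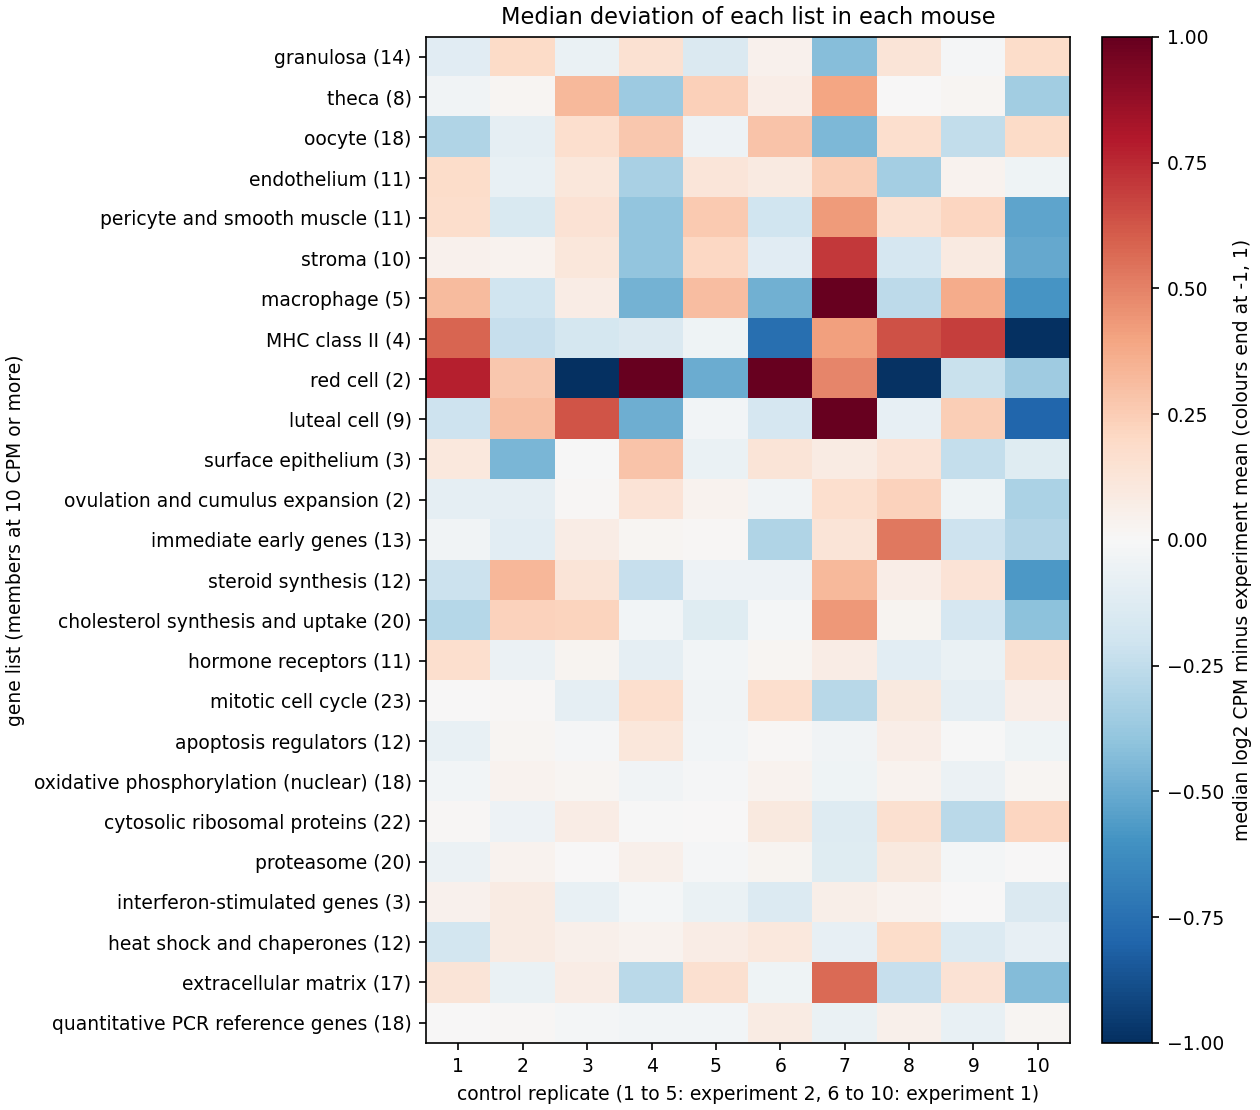
Median deviation of the members of each list from their experiment's mean, in log2 CPM, by mouse, for members of at least 10 CPM (their number in brackets), with colours ending at -1 and 1. Replicate 7 is high for luteal (1.15) and macrophage (1.03) genes and low for oocyte (-0.45) and granulosa (-0.43) genes.

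Replicate 7 held the highest value in 139 of the 383 high-spread genes (36.3%), and in 15.6% of all genes of at least 10 CPM. Over all genes of at least 10 CPM, replicates 4 and 10 were highest more often than replicate 7, in 18.5% and 16.6%. Among the high-spread genes they were highest in 6.53% and 11.7%. Replicate 4 was lowest in 89 and replicate 10 in 77 of the high-spread genes. The lowest mouse was not counted over all genes, so whether these counts are particular to high-spread genes was not tested. In replicate 7 the median luteal gene lay 1.15 and the median stromal gene 0.71 above the experiment's mean on the log2 scale, while the median oocyte gene lay at -0.45 and the median granulosa gene at -0.43. Replicate 10 lay at -0.80 for luteal and -0.51 for stromal genes. The part of follicle make-up in these differences was not tested.

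The first principal component of the centred values, over 14260 genes, held 28.7% of the variance and the second 14.8%. Replicate 7 lay at 44.1 on the first, replicate 9 at 18.6 and replicate 10 at -32.8 at the other end. Cyp4f18 and Akr1c18 were among the 8 genes at its high end. Replicate 4 stood alone on the second component at 35.1. That mouse had the highest Nr4a1, an immediate early transcription factor, at 299 CPM, where the median was 62.1 CPM. The immediate early genes as a list were not raised in replicate 4, with 7 of 13 above their experiment's mean and a median deviation of 0.02. In replicate 8, 12 of 13 were above it, with a median of 0.52. Replicate 4 also had the highest Sgk1, a kinase induced by gonadotropins and steroids, at 296 CPM, where the median was 90.3 CPM.

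**Figure D5:**
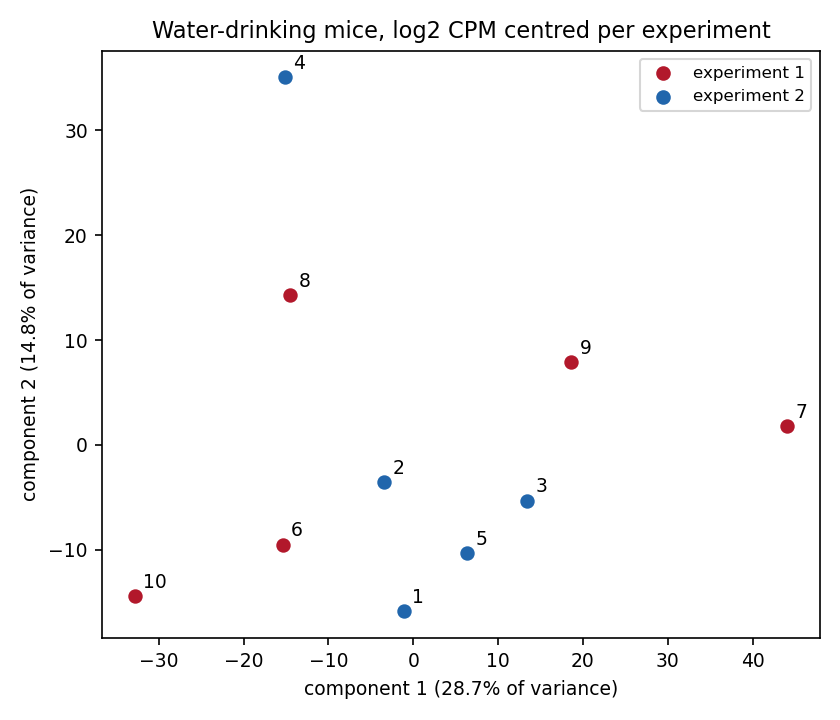
The 10 water-drinking mice on the leading 2 components of log2 CPM centred per experiment, numbered by control replicate and coloured by experiment. Replicate 7 lies at 44.1 on component 1 and replicate 4 at 35.1 on component 2.

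Immediate early genes, which respond within minutes to stimulation, had high spread in 4 of 13 cases, with a median SD of 0.43, beside 3.65% and 0.13 over all genes of at least 10 CPM. Without replicate 8 the count was 2. Fos ran from 31.3 through 52.3 to 122 CPM and Jun from 120.1 through 184 to 400.3 CPM, and replicate 8 was highest for both. Of 23 mitotic genes none had high spread, and their median SD was 0.20. Mki67, a protein of dividing cells, ran from 231 through 271 to 325 CPM, and Top2a, a topoisomerase of dividing cells, from 249 through 335 to 403 CPM. In replicate 7 none of the 23 mitotic genes lay above its experiment's mean, and in replicate 6, 22 did. Apoptosis regulators had a median SD of 0.11, with none of 12 of high spread. For the mitotic and apoptosis lists, a count of none is close to the 3.65% over all genes. Kitl, the granulosa ligand of the oocyte receptor Kit, had an SD of 1.14 and ran from 15.9 through 60.4 to 145 CPM.

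Promoters of high-spread genes were examined for a TATA box, the core element that positions transcription at many inducible genes. The letters TATAAA were searched on the gene's strand, starting 40 to 20 bases before the start site, in RefSeq promoter windows of GRCm38.p6. The windows hold 250 bases before and 50 after the start, and 262 of the 383 high-spread genes matched. The letters AGGTCA, to which orphan nuclear receptors such as steroidogenic factor bind, were searched on both strands of the whole window. A match to the one may share its last base with the other. Shown are 3 high-spread genes with TATAAA and the 1 window listed for Inha, an abundant gene below the high-spread limit (SD 0.20). All were chosen after their values were seen. Matches are in capitals, and each sequence ends at the base before the listed start. The Inha window lacks TATAAA there, but much of it can be read as an unbroken protein-coding frame. Its listed start may therefore lie inside the gene, and the window gives no information on TATAAA or AGGTCA at the Inha promoter.
S100a4 (chr3:90603520-90603769, plus strand): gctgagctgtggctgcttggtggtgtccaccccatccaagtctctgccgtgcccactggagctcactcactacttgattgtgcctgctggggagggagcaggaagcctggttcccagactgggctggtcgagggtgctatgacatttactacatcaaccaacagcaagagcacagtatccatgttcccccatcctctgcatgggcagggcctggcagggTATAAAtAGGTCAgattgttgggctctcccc
Cyp19a1 (chr9:54228915-54229164, minus strand): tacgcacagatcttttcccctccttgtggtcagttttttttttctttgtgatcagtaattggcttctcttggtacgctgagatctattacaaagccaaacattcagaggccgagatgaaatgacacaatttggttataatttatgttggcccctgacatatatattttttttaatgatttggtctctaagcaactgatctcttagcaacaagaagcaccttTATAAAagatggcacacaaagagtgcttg
Fos (chr12:85473640-85473889, plus strand): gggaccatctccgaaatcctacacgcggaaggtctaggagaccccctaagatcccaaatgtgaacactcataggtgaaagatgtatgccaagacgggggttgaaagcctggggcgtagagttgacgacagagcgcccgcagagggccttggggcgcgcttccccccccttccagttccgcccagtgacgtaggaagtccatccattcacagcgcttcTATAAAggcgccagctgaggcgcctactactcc
Inha (chr1:75507359-75507608, plus strand): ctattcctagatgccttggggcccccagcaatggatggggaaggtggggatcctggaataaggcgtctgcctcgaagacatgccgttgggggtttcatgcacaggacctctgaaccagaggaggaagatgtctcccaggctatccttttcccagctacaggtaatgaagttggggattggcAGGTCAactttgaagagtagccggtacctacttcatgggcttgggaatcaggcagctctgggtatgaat

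In S100a4 the TATAAA began 31 bases before the start, in Cyp19a1 29 and in Fos 33. Cyp19a1 has 3 promoters in this table, of which only that printed holds it. TATAAA was found in 20 of 343 promoters of high-spread genes (5.83%) and in 1 of 399 promoters of the 383 genes with the lowest spread (0.251%). The share was 1.42% over 17755 promoters of all kept genes and 0.988% among genes of at least 10 CPM. AGGTCA was found in 20.1% of high-spread promoters, 8.77% of lowest-spread promoters and 13.7% of all. High-spread genes with TATAAA included Kitl, Sgk1, Cyp19a1, Cemip, Fos and Agt. These are counts of letters, given without a test.

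Some high-spread genes lay beside each other, by the gene order of GRCm38.p6 among genes of at least 10 CPM. Of 374 that could be placed, 63 (16.8%) had a high-spread gene next to them, and of other genes 6.59% did, a difference given without a test. Such runs included C1qa, C1qb and C1qc, which form a complement component of macrophages, the class II genes H2-Aa, H2-Ab1 and H2-Eb1, Sfrp4 with Epdr1, and S100a4 with S100a6. S100a4, a calcium-binding protein, ran from 1.47 through 13.4 to 142 CPM and S100a6 from 10.6 through 32.2 to 296 CPM, both highest in replicate 7. A run of 4 zinc finger genes, Zfp991, Zfp982, Zfp979 and Zfp984, also qualified.

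Some genes were near 0 in some mice and well expressed in others. A maximum of at least 5 CPM with a minimum under 0.5 CPM was met by 83 genes, 0.668% of the 12423 that reached 5 CPM in any mouse. In 18 of them every mouse was on either side of that gap. Sectm1b, a secreted and membrane protein, stayed just outside that definition with a minimum of 0.566 CPM, and lay at 82.6, 84.2 and 64.8 CPM in replicates 1, 2 and 8, and at 1.61 CPM or less in the other 7 mice. Dynlt1c, a dynein light chain, was at 0.427 CPM in replicate 10 and between 42.4 and 80.8 CPM elsewhere. Zfp990 was at 0.165 CPM in replicate 5 and reached 20.1 CPM. Cadps, which primes vesicles for release, lay between 11.5 and 25.7 CPM in 6 mice and at 0.569 CPM or less in 4. CD-1 is an outbred stock, and inherited differences between the mice were not tested.

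Several of the most variable entries have near-identical copies, between which counting could split reads, so that their separate values are uncertain. Rpl17-ps8, a pseudogene of a ribosomal protein, had the largest SD of all, 5.13, with values from 0 through 7.57 to 245 CPM. Summed with Rpl17 and LOC118568354 it ran from 485 to 997 CPM, with an SD of 0.32. Rpl17 alone had a mean of 720 CPM and an SD of 0.19, below that of the sum. Dynlt1c had an SD of 2.24, and the sum over Dynlt1a, Dynlt1b, Dynlt1c and Dynlt1f 0.29, where Dynlt1b alone had 0.48. Hmga1b had an SD of 2.87, and its sum with Hmga1 0.25, where Hmga1 alone had 0.29. In Sectm1a and Sectm1b the sum kept an SD of 2.97. These families were chosen after their values were seen. A sum depends most on its most abundant copy, so a low summed SD does not show that reads were split, which was not tested.

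The water-drinking mice of the 2 experiments were compared gene by gene with edgeR's quasi-likelihood test. Of 18169 genes 10 (0.055%) passed a Benjamini-Hochberg adjusted p of 0.05, 6 (0.033%) higher and 4 (0.022%) lower in experiment 1. An unadjusted p under 0.05 was met by 2071 genes, where 908 would be expected if no gene differed. Cox7c, a subunit of cytochrome c oxidase, lay between 18.5 and 28.3 CPM in experiment 1 and between 5.69 and 7.94 CPM in experiment 2. Whether Cox7c shares reads with a copy was not examined. Its log2 difference was 1.74 ± 0.14 (SE) with an edgeR adjusted p of 0.00101. Chtf8, a replication factor, differed by 3.34 ± 0.39 on the log2 scale (edgeR adjusted p = 0.0114). Llph-ps2 had no count in the 5 mice of experiment 2 and 2.68 to 8.04 CPM in experiment 1. Lypla1, Kantr and Gm12669 were also higher.

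Lower in experiment 1 were Rpl34, Rps15a-ps6, Rpl31-ps12 and Gm15564. Rpl34, a ribosomal protein, lay between 19.8 and 29.5 CPM there and between 45.7 and 57.8 CPM in experiment 2 (log2 difference -1.06 ± 0.11, edgeR adjusted p = 0.00483). Summed with its copy Rpl34-ps1, it ran from 307 to 400.2 CPM in experiment 1 and from 382 to 417 CPM in experiment 2, which overlap. Rpl31-ps12 summed with Rpl31 ran from 404 to 634 CPM in experiment 1 and from 522 to 622 CPM in experiment 2, which also overlap. Both sums were set mainly by the larger member. Rpl34-ps1 had a mean of 339 CPM beside 38.4 for Rpl34, and Rpl31 had 516 beside 31.1 for Rpl31-ps12. The larger members hardly differed, with means of 333 (experiment 1) and 345 (experiment 2) for Rpl34-ps1, and 514 and 518 for Rpl31. The overlap therefore cannot decide whether reads were split between copies, which was not tested. The pseudogenes Rps15a-ps6 and Llph-ps2 were not summed with their copies. None of the 7 markers passed the test, with edgeR adjusted p from 0.311 for Cyp17a1 to 0.9 for Pecam1. The count of genes was 5 without replicate 2, 5, 6 or 9, 6 without replicate 8 and 16 without replicate 10, and DESeq2 gave 465. With each mouse left out in turn, Cox7c, Rpl34, Rps15a-ps6 and Llph-ps2 passed in all 10 fits and Chtf8 in 9. Gm12669 passed in 4, Rpl31-ps12 in 2, Gm15564 in 1, and Lypla1 and Kantr in 0.

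Whether the markers varied together was tested over the 21 pairs of the 7 genes by exact permutation of the mice within experiments, two-sided, on centred log2 CPM. No pair passed after Benjamini-Hochberg adjustment, and 2 had an unadjusted p under 0.05. The oocyte genes Zp3 and Gdf9 had r = 0.91 (exact permutation p = 0.00271, adjusted 0.0569, n = 10 mice), Spearman's rho was 0.78 (exact permutation p = 0.0156), and r was 0.87 without the 2 mice farthest from the median of Zp3. The granulosa genes Fshr and Inha had r = 0.84 (exact permutation p = 0.0142, adjusted 0.149), with rho 0.76 (exact permutation p = 0.0362), and r was 0.46 without the 2 farthest mice, so that this relation rests on them. With 5 mice, no correlation is given within an experiment.

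The genes whose centred values were most like each marker's over the 10 mice are given as a description, since all come from the same libraries. For Zp3 they were Zp2 (r = 0.98) and Zp1 (0.97), which encode the other egg coat proteins, then Cpeb1, Ccno and Pramel13. For Gdf9 they were Rhpn2 (0.99), AU015836, Fbxw19, Eif4e1b and Gm1070. For Pecam1 they were Mmrn2 (0.97), Pde2a, Sh2d3c, Cldn5, a tight junction protein, and Ifngr1. For Cyp17a1 they were Fads2 (0.97), a fatty acid desaturase, Dhrs1, Gadd45gip1, Med1 and Fads1. For Fshr they were led by Rnf170 (0.97), for Inha by Nup37 (0.98) and for Cyp19a1 by Gclc (0.95).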

How the data were processed

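A stranded mRNA library was sequenced from 1 end for each mouse, per the labels. Values were estimated counts by gene as deposited, made by the authors with Salmon 1.2.0 on GRCm39, with quality control by FastQC 0.11.8 and R 4.1.2, per the submitters' processing notes; no column was without a sample. The authors' kept genes were used. Counts were rounded, scaled by TMM and tested with edgeR 4.0.16 (R 4.3.3; limma 3.58.1 and DESeq2 1.42.0 as alternatives), with a mean per experiment. Experiment was taken from the column headers. Log2 CPM used a prior count of 2, and SDs have 8 degrees of freedom. On simulated data of 18169 genes for the comparison of experiments, 84 of 100 genes changed 2-fold and 99 of 100 changed 4-fold were recovered, with 10 false calls. The changed genes were drawn from those with a mean of at least 2 CPM, so recovery of lower genes was not measured. Every pair of libraries differed beyond counting error, with a chi-square per gene of at least 22.6. Named genes were the 7 markers, the highest CPM, the largest and smallest SD, list members, component genes and the genes called. The members and lists were chosen with earlier results of these data known. Gene types, lengths and order come from GRCm38 annotation, a different build from the authors'. Alternatives covered scaling, filters, prior count, tools and leaving out each mouse.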

Additional observations from a re-analysis of the deposited data

Results flagged for a closer look

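Of 85 values examined over the 10 mice, 6 had a highest or lowest mouse separated from the rest by more than Dixon's 95% limit. Chance flags about 1 in 20 values, but that rate does not hold for genes named for their large SD, which 4 of the 6 were. The summed cholesterol synthesis and uptake list reached 4446 CPM in replicate 7. Rplp0, a ribosomal stalk protein, was lowest in replicate 9 at 1163 CPM. Those 4 were single mice near 0: Dynlt1c at 0.427 CPM in replicate 10, Zfp990 at 0.165 CPM and Gm38802 at 0.401 CPM in replicate 5, and Tmem181c-ps at 0.301 CPM in replicate 9.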

How the results depend on the processing

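Between experiments, DESeq2 called 465 genes where edgeR called 10, and all 10 were among them; leaving out a mouse gave 5 to 16. The biological coefficient of variation was 22.3% with edgeR's own filter, 20.3% for genes of at least 1 CPM in at least 5 mice and 24.2% without centring, and 21.3% to 23.8% when a mouse was left out. High-spread genes numbered 930 at a mean of at least 2 CPM, and 303 to 409 when a mouse was left out, the lowest without replicate 7. The share of counts in the 25 genes with most counts was 6.50% to 6.62% when a mouse was left out, and 4.83% for the 25 leading genes per kilobase. Pairs of markers passing numbered 1, Zp3 with Gdf9, under upper-quartile scaling, library totals alone or no centring, and 0 whichever mouse was left out. The cause of these changes was not tested. No paired analysis was possible because only 1 treatment group was used. Depth limits genes under 1 CPM, where counting error was a median of 30.7% of the variance.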
